A study of Homo sapiens with 8 samples.

Results

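U87MG, an established line of human glioblastoma cells, was profiled by RNA-seq after 24 h and after 4 h of enzalutamide, an antiandrogen given in prostate cancer. The comparison described here sets the 2 libraries of 24 h against the 2 libraries of 4 h, over every gene with enough counts, and uses no untreated library in the contrast. These are 4 of the 8 libraries of the study. The others are 2 of untreated cells, whose treatment is labelled as none, and 2 of cells after 48 h of the drug. They give the untreated and 48 h levels, and they also enter the count filter and the estimate of spread behind the p-values. All groups were the same line grown in serum-containing medium. The labels give no drug concentration, no vehicle and no time for the untreated cells, and their extraction text speaks of a differentiation that the growth and treatment texts do not mention. Nothing in the labels says whether 2 libraries of a time are separate cultures, so p-values measure the spread between libraries, which may be technical.

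Proliferating cells express the genes of DNA replication and mitosis in waves. E2F factors switch on the genes of DNA synthesis ahead of S phase, and the MuvB complex with MYBL2 and FOXM1 switches on those of mitosis, while the DREAM complex keeps both sets low in resting cells. Stress programs act on a shorter scale: heat shock factors, the metal sensor MTF1, the antioxidant factor NRF2 and the immediate early factors of the AP-1 family switch on their targets within the first hours of an insult, and several of these targets encode products that shut the response down again. In bulk RNA, a change in the share of cells in a phase and a change in the RNA per cell cannot be told apart.

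The libraries held 37162565 and 33105625 counts at 24 h and 24620833 and 32767660 counts at 4 h. Of 23368 listed genes, 14448 had enough counts to be tested. Replicates correlated at 0.995 at 24 h and 0.994 at 4 h across genes on the log2 scale, and genes are not independent replicates. Of 14 immune cell markers, AIF1, CD3D, CD3E, MS4A1 and TYROBP were at 0 in all libraries, as were 5 haemoglobin genes. The immune list as a whole had the largest summed level among markers of other cell types, 902.8 and 879.7 CPM (counts scaled to 1e6 per library) at 24 h and 817.8 and 852.5 CPM at 4 h, and its part in the results was not tested. Only 3 of the 14 immune markers had enough counts to be tested. The summed level of 15 astrocytic and mesenchymal glioma markers was 23360 and 22539 CPM at 24 h and 24572 and 22964 CPM at 4 h, with AQP4 at 0. The cell cycle inhibitor genes CDKN2B and CDKN2C were also at 0 in every library.

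Between 4 h and 24 h, 3068 genes were called higher and 2929 lower, which is 21.2% and 20.3% of the genes tested. Counts of called list members below are to be read beside these shares. A call is a Benjamini-Hochberg adjusted p under 0.05 in edgeR's quasi-likelihood test, and all adjusted p-values and log2 changes (24 h minus 4 h, ± SE, 2 libraries per time) come from that fit. Changes of at least 2-fold were called for 604 genes (4.18%) upward and 545 genes (3.77%) downward, and changes of at least 4-fold for 110 and 102. The median log2 change over all tested genes was -0.0059, with quartiles of -0.28 and 0.27. Both 24 h libraries lay above both 4 h libraries in all 3068 genes called higher, and below them in 2925 of the 2929 called lower.

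**Figure D1:**
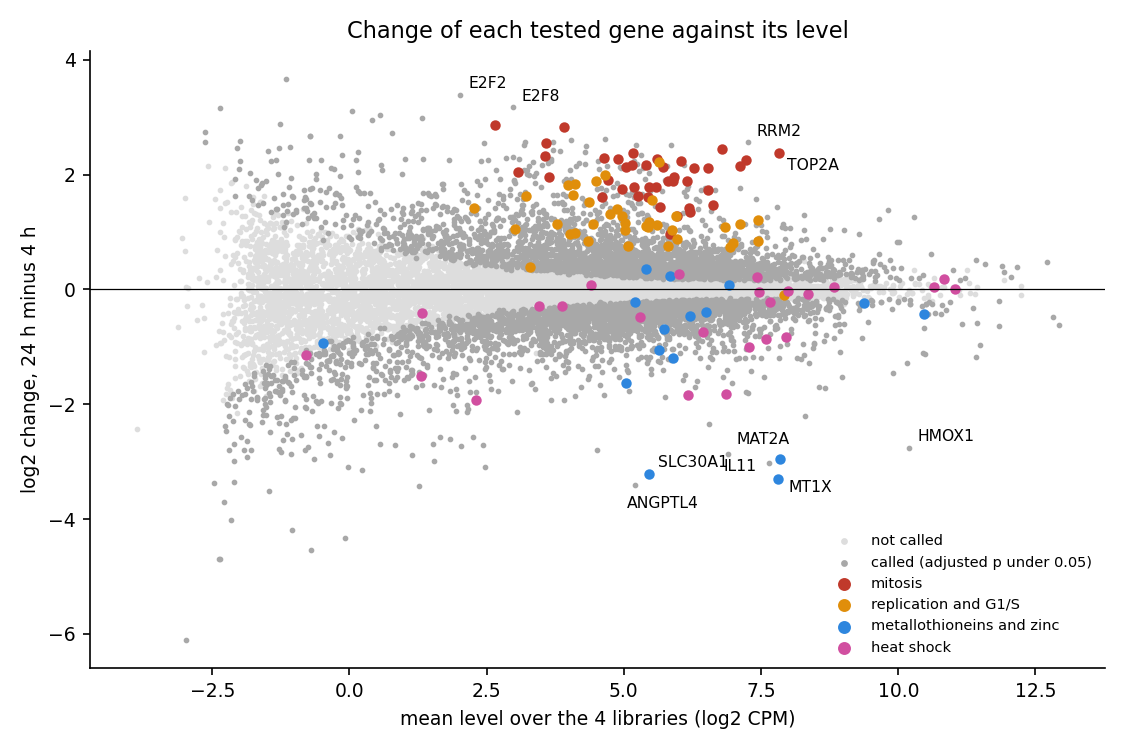
Each point is a tested gene, with its mean log2 CPM over the 4 libraries on the x axis and its log2 change (24 h minus 4 h) on the y axis. Grey shades mark whether the gene was called, and colours mark members of 4 lists. The mitosis genes lie from 0.97 to 2.86, and the most negative of the coloured points are SLC30A1 and the metallothioneins MT1X and MT1E.

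E2F2, an activator of DNA synthesis genes, had 11.97 and 14.2 CPM at 24 h, against 0.92 and 1.5 CPM at 4 h. The related E2F8, a repressor that ends the E2F wave, had 21.4 and 25.6 CPM at 24 h, against 2.72 and 2.5 CPM at 4 h. Their log2 changes were 3.39 ± 0.21 and 3.17 ± 0.17 (adjusted p = 4.15e-07 and 1.63e-07). The next were SPC24 of the outer kinetochore at 2.86 ± 0.19, Aurora kinase B (AURKB) at 2.83 ± 0.12, the scaffold IQGAP3 at 2.61 ± 0.12 and EFHC2, an EF-hand protein, at 2.61 ± 0.11. PKMYT1, the kinase that restrains CDK1 before mitosis, RRM2, the regulated subunit of ribonucleotide reductase, ESCO2, the cohesin acetyltransferase, the checkpoint kinase TTK, the MYC-network repressor MXD3 and MYBL2 followed, between 2.52 and 2.57. These 12 genes were chosen as the largest called rises at a mean of at least 2 log2 CPM with groups that did not overlap. EFHC2 had 40.9 and 39.1 CPM at 24 h, against 7 and 6.21 CPM at 4 h, and 9.35 and 8.4 CPM in untreated cells, so its rise was mainly above the untreated level.

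ANGPTL4, a secreted inhibitor of lipoprotein lipase, had 10.5 and 12.1 CPM at 24 h, against 122 and 117 CPM at 4 h, and the untreated libraries had 8.78 and 9.06 CPM. HMOX1, the heme-degrading enzyme of the antioxidant response, had 489 and 416 CPM at 24 h, against 3194 and 2914 CPM at 4 h, and 387 and 372 CPM in untreated cells. SLC30A1, which exports zinc across the plasma membrane, had 12.7 and 16.5 CPM at 24 h, against 147 and 123 CPM at 4 h, and 13.7 and 13.9 CPM in untreated cells. In each of these the 4 h libraries stood far above both the 24 h and the untreated ones. The log2 changes were -3.40 ± 0.10, -2.75 ± 0.08 and -3.21 ± 0.14 (adjusted p = 5.48e-09, 5.48e-09 and 3.43e-08). The cytokine IL11 also fell, with 78.3 and 62.5 CPM at 24 h, against 605 and 539 CPM at 4 h, a log2 change of -3.02 ± 0.11. Others among the 12 largest falls were MT1X and MT1E, KRTAP1-5, the tachykinin receptor TACR2, the AP-1 gene FOSB and the pentraxin NPTX1, from -3.31 to -2.56.

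MAT2A, MIR22HG and KRTAP1-5 also fell steeply but passed below the untreated level. MAT2A makes S-adenosylmethionine, the methyl donor of the cell, and had 45.6 and 42.3 CPM at 24 h, against 311 and 330.5 CPM at 4 h, beside 124 and 126 CPM in untreated cells (log2 change -2.87 ± 0.12, adjusted p = 3.16e-08). MIR22HG, the host transcript of a microRNA, had 7.95 and 9.25 CPM at 24 h, against 55.8 and 63.8 CPM at 4 h, beside 31.2 and 28.7 CPM in untreated cells (log2 change -2.80 ± 0.11, adjusted p = 1.96e-08). MAT2A and MIR22HG were higher than untreated at 4 h and lower than untreated at 24 h. Their adjusted p-values against control, the 4 h value first, were 1.31e-05 and 1.06e-05 for MAT2A and 4.07e-05 and 2.66e-06 for MIR22HG. Of all tested genes, 15% were called higher than control at 4 h and 9.39% lower at 24 h. KRTAP1-5 had 1.73 and 2.00 CPM at 24 h, against 16.6 and 15.3 CPM at 4 h. Its untreated libraries had 5.84 and 4.29 CPM. It was also called higher than untreated at 4 h and lower at 24 h (adjusted p = 0.000208 and 0.00222).

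**Figure D2:**
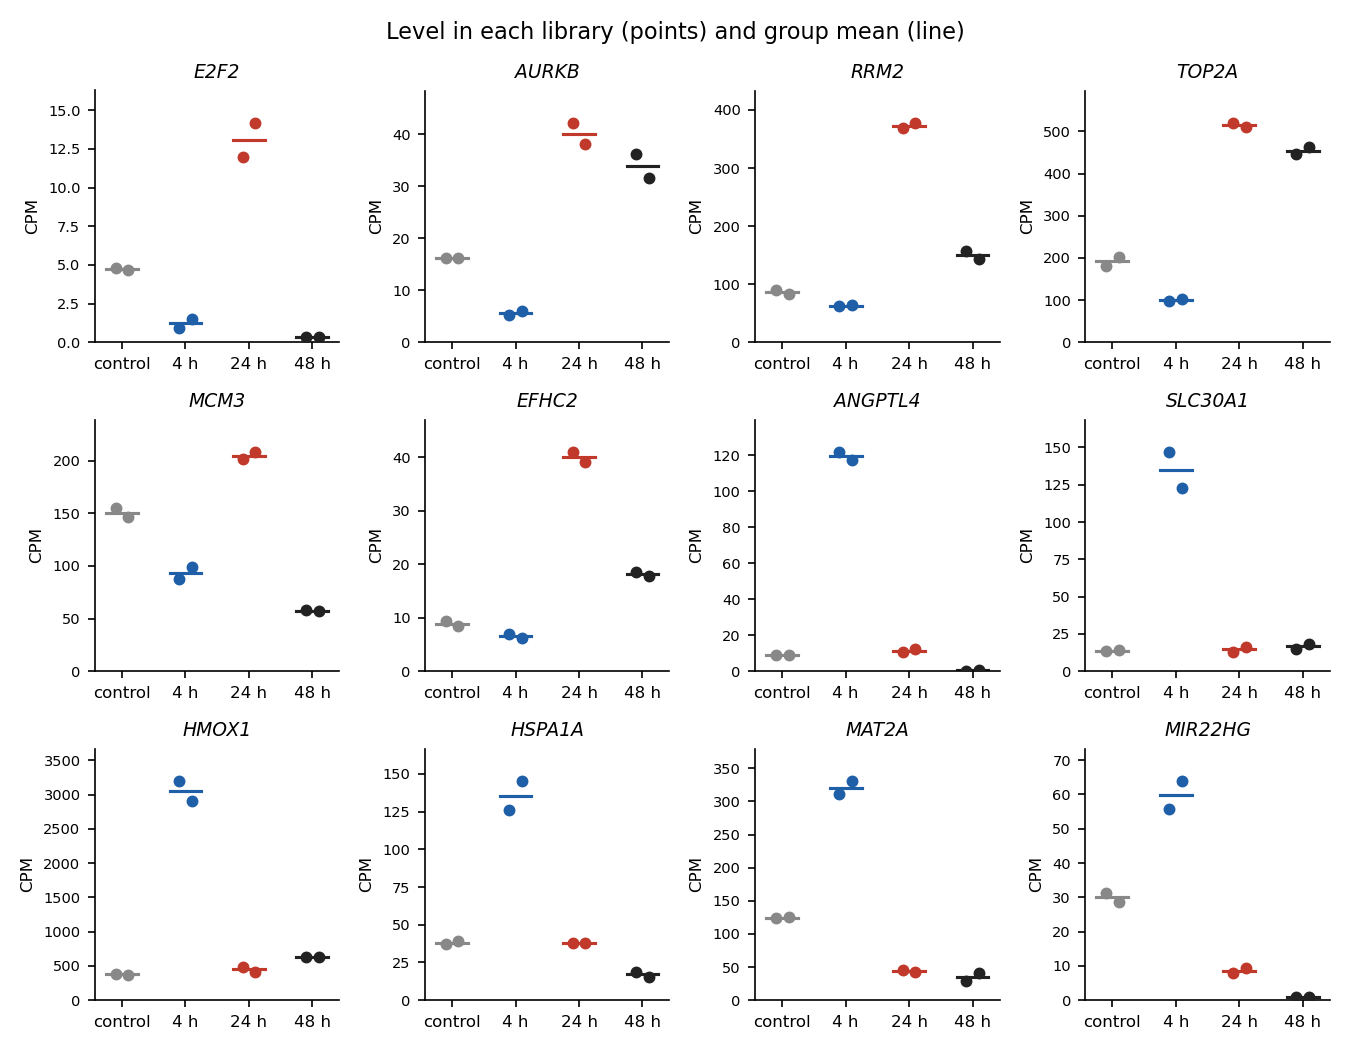
Level in CPM (y axis, from 0) of 12 genes in the 8 libraries, grouped along the x axis by time on the drug. Points are libraries and lines are means of 2. E2F2, AURKB, RRM2, TOP2A, MCM3 and EFHC2 have their highest mean at 24 h, and ANGPTL4, SLC30A1, HMOX1, HSPA1A, MAT2A and MIR22HG have theirs at 4 h.

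All 40 genes of the mitosis list were measured, and all 40 were called higher at 24 h, 39 of them by at least 2-fold. The median log2 change of the list was 2.00, beside -0.0059 over all tested genes. PTTG1, the securin, was the least changed at 0.97 ± 0.07, and SPC24 the most. TOP2A, the topoisomerase that untangles chromosomes, had 519 and 511 CPM at 24 h, against 97.8 and 102 CPM at 4 h (log2 change 2.37 ± 0.07, adjusted p = 5.48e-09). ANLN, a scaffold of the cleavage furrow, had 259 and 256 CPM at 24 h, against 46.99 and 48.1 CPM at 4 h, and TPX2, which activates Aurora A on the spindle, had 300.2 and 285 CPM at 24 h, against 64.9 and 66.97 CPM at 4 h. NUSAP1, a microtubule-binding protein of the spindle, had 162 and 162 CPM at 24 h, against 37.3 and 37.6 CPM at 4 h. As in all 3068 genes called higher, both 24 h libraries lay above both 4 h libraries in every gene of the list.

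The mitosis genes did not start from the untreated level. At 4 h, 40 of 40 were called lower than in untreated cells (13.6% of all tested genes were), with a median log2 difference of -0.99, and at 24 h, 39 were called higher than in untreated cells (12.9% of all tested), with a median of 1.02. Both comparisons share the untreated libraries. TOP2A had 181 and 203 CPM in untreated cells and 445 and 462 CPM at 48 h. The proliferation marker MKI67 had 309 and 343 CPM at 24 h, against 71.5 and 64.7 CPM at 4 h, and 119 and 149.8 CPM in untreated cells, a log2 change of 2.26 ± 0.12 between the times (adjusted p = 1.98e-07). The chromatin protein HMGB2 was among the 4 rises with the smallest p, with 144 and 144 CPM at 24 h, against 32.6 and 31.9 CPM at 4 h, and its log2 change was 2.16 ± 0.06.

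The promoters of the mitosis genes carried the 2 short sequences known from MuvB and NF-Y targets more often than other promoters. Sequences were taken from RefSeq (GRCh38.p14, 250 bases before to 50 after the start of the gene) and found for 35 of the 40 genes and for 11136 of all tested genes. The letters searched, on both strands, were CCAAT for the CCAAT box, and TTTGAA or TTCGAA for the core of the cell cycle homology region. The homology region core was in 27 of the 35 mitosis promoters (77.1%), against 11.6% of all promoters, and the CCAAT box in 82.9%, against 36.5%. Of the 38 replication genes, 34 had a promoter, and the homology region core was in 1 of these (2.94%). A match of so few letters is a description of the sequence and not a binding site. The promoters of TOP2A (chr17:40417847-40418146, minus strand) and CCNB2, the cyclin B2 gene (chr15:59104896-59105195, plus strand), are shown because each holds several CCAAT boxes beside the homology region core. Capitals mark the CCAAT box (ATTGG on the other strand) and the homology region core (TTCAAA on the other strand), which share no letters here.
TOP2A: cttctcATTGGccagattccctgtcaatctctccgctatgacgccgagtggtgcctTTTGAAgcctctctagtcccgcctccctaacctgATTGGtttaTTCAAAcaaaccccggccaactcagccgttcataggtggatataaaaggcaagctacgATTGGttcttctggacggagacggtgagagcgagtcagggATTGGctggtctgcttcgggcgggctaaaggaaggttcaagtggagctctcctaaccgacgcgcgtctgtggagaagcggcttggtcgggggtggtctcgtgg
CCNB2: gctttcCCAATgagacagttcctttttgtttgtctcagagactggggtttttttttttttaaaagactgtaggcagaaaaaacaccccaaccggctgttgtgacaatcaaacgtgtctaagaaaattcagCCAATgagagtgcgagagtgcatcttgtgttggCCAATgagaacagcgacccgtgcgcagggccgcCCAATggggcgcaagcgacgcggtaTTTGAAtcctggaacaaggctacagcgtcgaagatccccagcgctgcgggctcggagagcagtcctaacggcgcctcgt
Both hold 4 CCAAT boxes, a number reached by 1.57% of all promoters. In CCNB2 the boxes begin 244, 120, 87 and 54 bases before the start of the gene, and the homology region core 29 bases before it. CCNB2 itself had 74.8 and 76.9 CPM at 24 h, against 24.99 and 25.03 CPM at 4 h, a log2 change of 1.60 ± 0.07.

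Promoters grouped by these letters alone differed in how often their genes rose. Of the 531 tested genes with both a CCAAT box and a homology region core, 16.4% were called higher by at least 2-fold, with a median log2 change of 0.16 over all of them. The share was 6.74% among 757 genes with the core and no CCAAT box, and 3.86% among 3184 genes with the CCAAT box alone. It was 3.1% among 5840 genes with none of the 3 elements searched, the E2F core being the third. Most genes with both elements were not called higher, since 37.9% of them were called at any size, beside 20.3% of those with none.

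**Figure D3:**
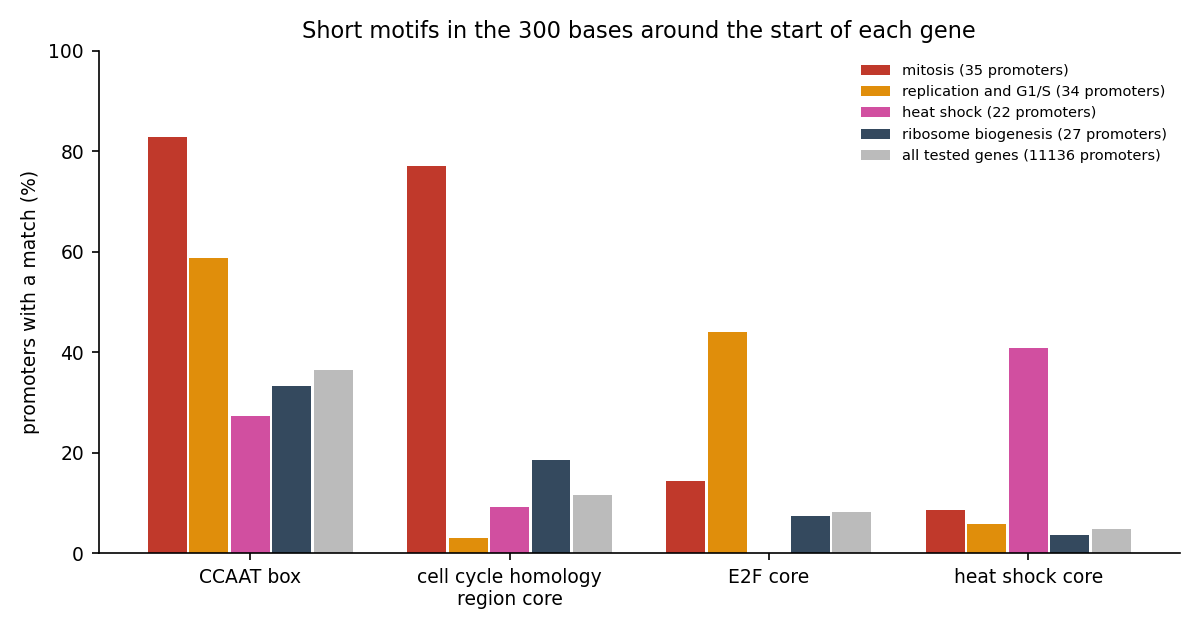
Share of promoters (y axis, percent) that hold each of 4 short motifs (x axis), for 4 gene lists and for all tested genes with a promoter. The mitosis bars stand at 82.9% and 77.1% for the CCAAT box and the homology region core, the replication bar at 44.1% for the E2F core and the heat shock bar at 40.9% for the heat shock core.

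Of 38 genes of replication and S phase entry, 36 were called higher and none lower, 27 of them by at least 2-fold, with a median log2 change of 1.14. CCNA2, the cyclin of S phase and early mitosis, had 109.7 and 105 CPM at 24 h, against 23.6 and 22.4 CPM at 4 h (log2 change 2.23 ± 0.08, adjusted p = 1.55e-08). CDC6, which loads the replicative helicase, had 78.96 and 78.7 CPM at 24 h, against 23.7 and 29.8 CPM at 4 h, and MCM3, a subunit of that helicase, had 202 and 208 CPM at 24 h, against 87.3 and 99.4 CPM at 4 h. TIMELESS, a protein of the replication fork, had 92.3 and 99.3 CPM at 24 h, against 38.6 and 40.8 CPM at 4 h. The rises of MCM3 and TIMELESS, 1.13 ± 0.07 and 1.27 ± 0.08, were smaller than that of CCNA2. At 4 h, 31 of the 38 were called lower than in untreated cells, with a median of -0.57, and at 24 h 35 were called higher, with a median of 0.65.

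The E2F core, TTCGCGC or TTGGCGC on either strand, was in 15 of the 34 replication promoters (44.1%), in 14.3% of mitosis promoters and in 8.27% of all promoters. The promoter of MCM6, another helicase subunit (chr2:135876394-135876693, minus strand), is shown because it holds the core on both strands at 2 places, where TTGGCGC overlaps GCGCGAA, the reverse complement of TTCGCGC. Capitals mark these letters.
MCM6: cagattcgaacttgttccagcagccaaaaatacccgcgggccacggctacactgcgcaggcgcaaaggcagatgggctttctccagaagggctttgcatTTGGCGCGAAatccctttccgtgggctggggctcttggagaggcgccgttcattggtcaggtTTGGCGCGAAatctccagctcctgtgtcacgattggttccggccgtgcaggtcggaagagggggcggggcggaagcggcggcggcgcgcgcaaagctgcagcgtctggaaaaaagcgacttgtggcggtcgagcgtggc
No other promoter of a tested gene held as many as these 4 matches. MCM6 had 154 and 162 CPM at 24 h, against 93.6 and 95.4 CPM at 4 h, a log2 change of 0.74 ± 0.06 (adjusted p = 5.31e-06).

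Of 20 genes of nucleotide supply, 13 were called higher and 1 lower, with a median of 0.50. RRM2 had 369 and 377 CPM at 24 h, against 62.1 and 63.6 CPM at 4 h, and the smallest p of all genes (log2 change 2.57 ± 0.07, adjusted p = 5.48e-09). Its untreated libraries had 89.4 and 82.5 CPM, closer to 4 h than to 24 h. The partner subunit RRM1 had 305 and 303 CPM at 24 h, against 125 and 128 CPM at 4 h. Thymidine kinase TK1 had 165 and 162 CPM at 24 h, against 46.5 and 50.1 CPM at 4 h. UMPS, which makes UMP in pyrimidine synthesis, moved the other way, with 32.9 and 35.9 CPM at 24 h, against 45.1 and 47.4 CPM at 4 h (log2 change -0.43 ± 0.08, adjusted p = 0.0019).

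Of 26 DNA repair genes of homologous recombination and the Fanconi pathway, 24 were called higher and none lower, with a median of 1.54. FANCD2, the ubiquitinated platform of the Fanconi pathway, had 54.2 and 54.7 CPM at 24 h, against 11.8 and 12.9 CPM at 4 h, and its partner FANCI had 117 and 129 CPM at 24 h, against 40.2 and 39.5 CPM at 4 h. RAD51AP1 and RAD54L, which act in strand exchange, had log2 changes of 1.92 ± 0.11 and 1.86 ± 0.11. None of these 4 genes had overlapping libraries, which holds for every gene called higher.

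Of 20 regulators of the E2F and DREAM class, 13 were called higher and 1 lower, with a median of 0.56. MYBL2, which joins MuvB to switch on mitotic genes, had 137 and 141 CPM at 24 h, against 23.95 and 24.4 CPM at 4 h (log2 change 2.52 ± 0.09). FOXM1 had 81.7 and 79.6 CPM at 24 h, against 21.7 and 21.1 CPM at 4 h, and E2F1 had 159 and 149 CPM at 24 h, against 61.7 and 57.4 CPM at 4 h. The rise was smaller in E2F1 (1.37 ± 0.08) than in FOXM1 (1.91 ± 0.08), and largest in E2F2 and E2F8. E2F6, a repressor of the family, was the member called lower (-0.54 ± 0.10, adjusted p = 0.00183). At 48 h E2F2 had 0.34 and 0.309 CPM and E2F8 1.43 and 1.24 CPM, both called lower than at 24 h (adjusted p = 2.6e-08 and 1.49e-08). Their log2 changes from 24 h to 48 h were -5.31 and -4.13. AURKB had 36.2 and 31.6 CPM at 48 h and was also called lower than at 24 h, by far less (-0.24, adjusted p = 0.0463).

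Cyclins and CDK inhibitors of G1 gave 8 rises and 2 falls among 10 measured genes. CDKN2D, an inhibitor of CDK4 and CDK6, had 27.9 and 26.3 CPM at 24 h, against 8.56 and 9 CPM at 4 h (log2 change 1.62 ± 0.11), and the kinase CDK2 had 82.2 and 81.1 CPM at 24 h, against 41.5 and 43.4 CPM at 4 h. The inhibitors CDKN1B and CDKN1A rose as well, by 0.90 and 0.49 on the log2 scale, with 342 and 348 CPM at 24 h, against 239 and 253 CPM at 4 h for CDKN1A. Cyclin D1 (CCND1) fell, with 1295 and 1267 CPM at 24 h, against 1748 and 1693 CPM at 4 h (log2 change -0.43 ± 0.05, adjusted p = 8.21e-05). CDKN1C was the other fall, at levels under 1 CPM, and was not called without the first 4 h or the second 24 h library (adjusted p = 0.118 and 0.103). MYC was called lower at 24 h, with 81.4 and 84.7 CPM at 24 h, against 105 and 97.1 CPM at 4 h, but not without the first 4 h or the first 24 h library (adjusted p = 0.0865 and 0.0762).

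The replication-dependent histone genes did not follow the replication enzymes. Only 20 of 53 listed genes had enough counts, and of these 1 was called higher and 5 lower, with a median of -0.31. Over all tested genes, 21.2% were called higher and 20.3% lower. HIST2H2BE had 5.67 and 5.7 CPM at 24 h, against 9.96 and 9.79 CPM at 4 h, and HIST1H1C had 10.6 and 10.9 CPM at 24 h, against 14.8 and 15.9 CPM at 4 h. HIST1H2BH, the member called higher, had 0.578 and 0.235 CPM at 24 h, against 0.08 and 0.0882 CPM at 4 h, levels that rest on few counts. HIST1H2AE, also called lower, had 0.0263 and 0.0881 CPM at 24 h, against 0.36 and 0.294 CPM at 4 h. HIST1H2BH, HIST1H1C, HIST1H2AE and HIST1H2AC, another of the falls, each lost their call with some single 4 h or 24 h libraries left out. Transcripts of this class normally end without a poly(A) tail. The labels do not say how RNA was selected for the libraries, and its part in these levels was not tested.

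**Figure D4:**
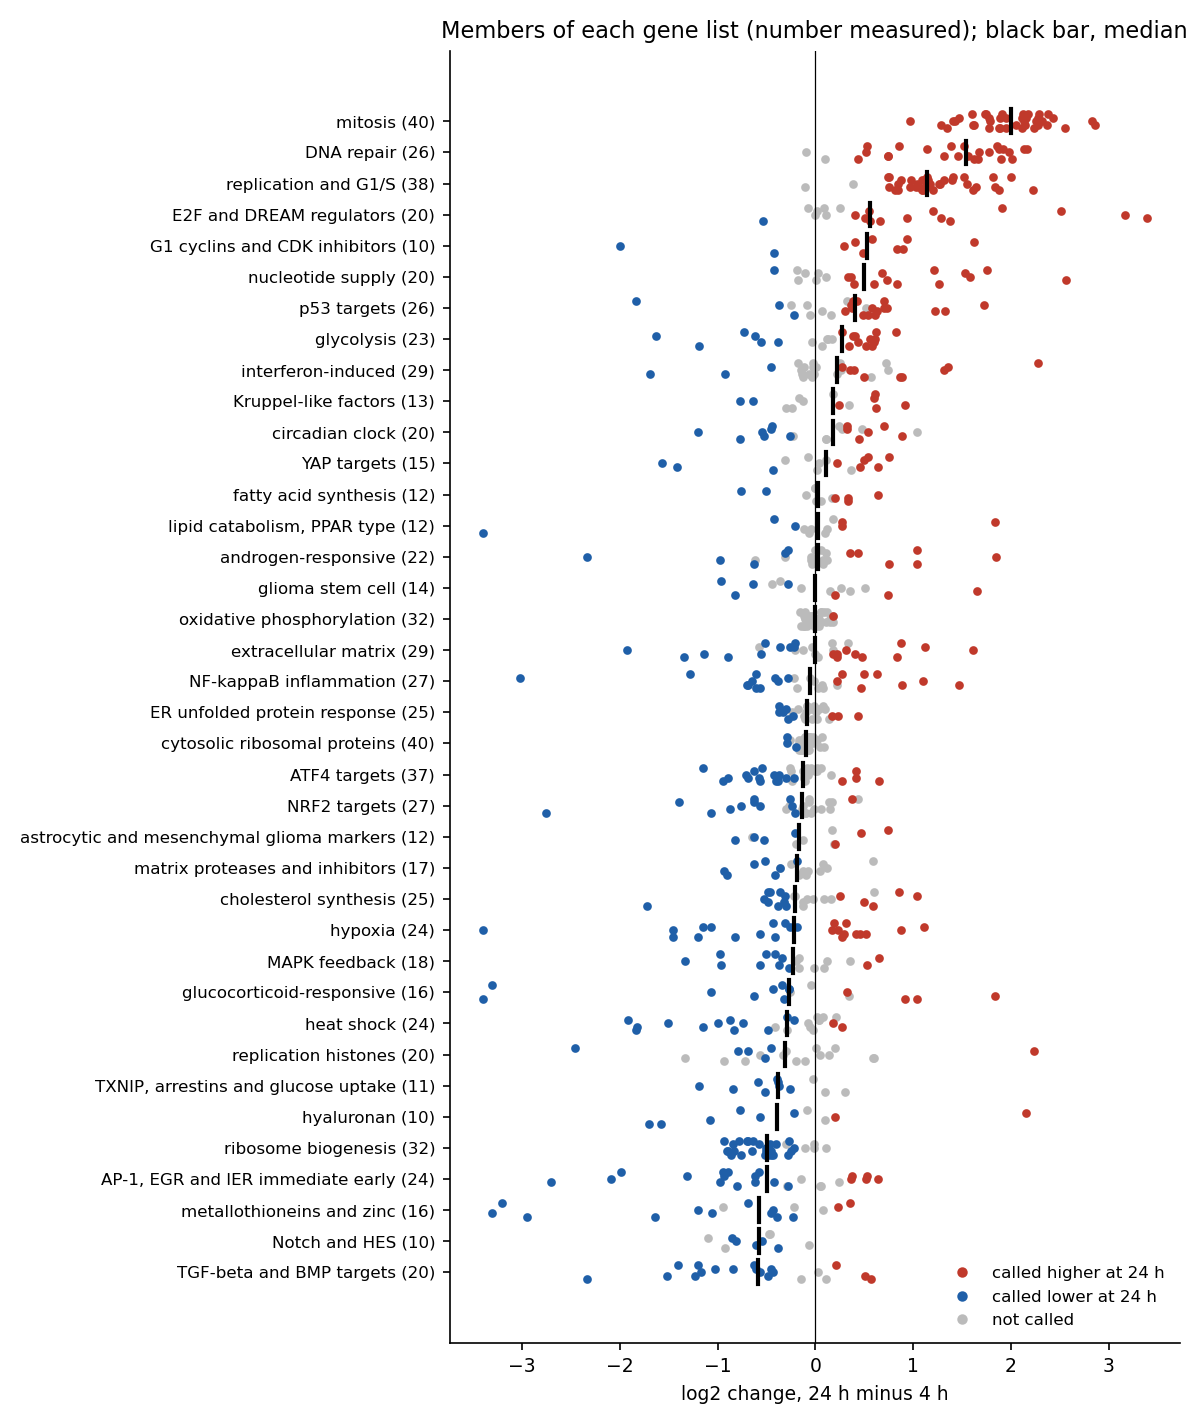
Log2 change (24 h minus 4 h, x axis) of every measured member of each list with at least 10 measured genes (rows, sorted by median). Points are genes, red for called higher, blue for called lower and grey for not called, and black bars are medians. Mitosis, DNA repair and replication stand at the top with medians of 2.00, 1.54 and 1.14, and TGF-beta and BMP targets at the bottom with -0.59.

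Of 16 measured metallothionein and zinc transporter genes, 11 were called lower at 24 h and 2 higher, with a median of -0.57. Metallothioneins are small cysteine-rich proteins that bind zinc and copper, and MTF1 switches on their genes. MT1X had 66.6 and 76.4 CPM at 24 h, against 766 and 653 CPM at 4 h (log2 change -3.31 ± 0.13, adjusted p = 1.96e-08), and MT1E had 73.8 and 92.5 CPM at 24 h, against 693 and 597 CPM at 4 h (-2.96 ± 0.14). MT2A, from the same cluster, changed far less, with 1203 and 1232 CPM at 24 h, against 1729.6 and 1549.9 CPM at 4 h (-0.43 ± 0.09, adjusted p = 0.00381, and 0.0512 without the first 4 h library). MT1M had 15.5 and 22.3 CPM at 24 h, against 66.3 and 51.3 CPM at 4 h. Its untreated libraries had 0.963 and 1.06 CPM, and its 48 h libraries 2.18 and 1.44 CPM. It fell between the times and was still above untreated cells at 24 h, by 4.21 on the log2 scale (adjusted p against control = 2.61e-06). MT1X and MT2A were also called above untreated cells at 24 h, by 0.50 and 0.29 (adjusted p = 0.0144 and 0.0486). MT1E was not called against control at 24 h (adjusted p = 0.285). Metallothionein genes are close copies of each other, and how shared reads were assigned is not stated. The importers SLC39A8 and SLC39A10 were the 2 called higher, by 0.24 and 0.36 on the log2 scale. Neither call held with length and GC content corrected (adjusted p = 0.0913 and 0.0626). That of SLC39A8 was also lost with DESeq2 (0.0585), after thinning (0.0750) and without the first 4 h or either 24 h library (0.0970 to 0.163), and that of SLC39A10 without either 4 h or the first 24 h library (0.133 to 0.310).

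The promoter of MT1X (chr16:56682220-56682519, plus strand) is shown because its gene had the steepest fall of the family. Capitals mark the metal response core, TGCACNC or TGCGCNC on either strand.
MT1X: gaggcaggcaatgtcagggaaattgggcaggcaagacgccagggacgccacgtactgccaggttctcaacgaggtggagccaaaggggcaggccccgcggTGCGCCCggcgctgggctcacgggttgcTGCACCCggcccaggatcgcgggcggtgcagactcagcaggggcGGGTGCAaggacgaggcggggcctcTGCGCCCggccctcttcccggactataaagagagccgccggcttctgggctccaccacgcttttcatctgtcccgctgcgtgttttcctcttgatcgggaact
It holds 4 matches, a number reached by 0.808% of all promoters. At least 1 match is common, since 38% of all promoters had it. Only 10 of the 16 members had a promoter sequence, so no share is given for the list.

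Of 24 heat shock genes, 12 were called lower and 2 higher, with a median of -0.29. HSPA1A and HSPA1B are near-identical copies of the inducible HSP70. HSPA1A had 38.1 and 37.9 CPM at 24 h, against 126 and 145 CPM at 4 h, and HSPA1B had 61.1 and 61.9 CPM at 24 h, against 202 and 233 CPM at 4 h. Their log2 changes were -1.84 ± 0.10 and -1.82 ± 0.10 (adjusted p = 1.33e-07 and 1.98e-07), and reads may be shared between them. The 24 h libraries of HSPA1A lay between the untreated ones, 37.00 and 38.97 CPM. The co-chaperone DNAJA1 had 191 and 179.6 CPM at 24 h, against 322 and 338 CPM at 4 h, and the nucleotide exchange factor HSPH1 had 113 and 107 CPM at 24 h, against 216 and 225 CPM at 4 h. HSP90AA1, the inducible HSP90, went the other way, with 1969.8 and 1935 CPM at 24 h, against 1684 and 1751 CPM at 4 h (0.18 ± 0.06, adjusted p = 0.0395), and so did HSPA4L at 0.27 ± 0.07. The call of HSP90AA1 was lost with DESeq2 (adjusted p = 0.0912), with DESeq2 size factors (0.0634), with the filter at 5 CPM (0.0504), with length and GC content corrected (0.182) and with each 4 h or 24 h library left out in turn (0.0971 to 0.213). That of HSPA4L was lost with the length and GC correction (0.132) and without the first 4 h or either 24 h library (0.0607 to 0.102).

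The heat shock core GAANNTTC, a pair of inverted units bound by heat shock factors, was in 9 of 22 heat shock promoters (40.9%) and in 4.85% of all promoters. That of HSPA1A (chr6:31815293-31815592, plus strand) is shown with the core in capitals, GAATATTC, which begins 106 bases before the start of the gene.
HSPA1A: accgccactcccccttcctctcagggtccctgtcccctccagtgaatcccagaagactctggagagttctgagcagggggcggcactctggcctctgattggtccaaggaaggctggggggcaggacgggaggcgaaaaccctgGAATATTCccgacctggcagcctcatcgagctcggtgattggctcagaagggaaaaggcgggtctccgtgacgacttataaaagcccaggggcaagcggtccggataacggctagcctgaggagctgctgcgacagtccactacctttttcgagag

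The other stress programs were mixed. Of 27 NRF2 targets, 11 were called lower and 1 higher, with a median of -0.13. Beside HMOX1, OSGIN1 had 28.3 and 27.5 CPM at 24 h, against 71.9 and 74.6 CPM at 4 h (-1.39 ± 0.07) and sulfiredoxin SRXN1 had 80.5 and 81.6 CPM at 24 h, against 137 and 138 CPM at 4 h (-0.76 ± 0.06). AKR1C1, an aldo-keto reductase that also acts on steroids, had 85.03 and 79.6 CPM at 24 h, against 169.8 and 175 CPM at 4 h, and its untreated libraries had 193 and 189 CPM, so its 24 h level was below both.

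Of 37 ATF4 targets, 15 were called lower and 4 higher, with a median of -0.13, and none of the rises and 1 of the falls reached 2-fold. The hormone gene STC2 and SLC3A2, which carries several amino acid exchangers to the membrane, had log2 changes of -1.15 ± 0.10 and -0.94 ± 0.08. ATF3 had 29.5 and 32.7 CPM at 24 h, against 47.03 and 45.5 CPM at 4 h, and 424 and 403 CPM at 48 h. DDIT3, the factor CHOP, had 82.2 and 88.7 CPM at 24 h, against 91.3 and 80.3 CPM at 4 h, did not pass the test (adjusted p = 0.978, SE 0.10 on the log2 scale) and had 1418 and 1223 CPM at 48 h. In the unfolded protein response of the endoplasmic reticulum, 6 of 25 genes were called lower, 3 higher, and none by 2-fold. Over all tested genes, 20.3% were called lower and 21.2% higher. The chaperone HSPA5 had 1254 and 1237 CPM at 24 h, against 1497 and 1538 CPM at 4 h (-0.29 ± 0.05, adjusted p = 0.00132) and 10789 and 10196 CPM at 48 h. Of the 4 groups, ATF3, DDIT3 and HSPA5 were highest at 48 h.

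Of 24 immediate early genes of the AP-1, EGR and IER families, 14 were called lower and 5 higher, with a median of -0.50. FOSB had 2.31 and 1.88 CPM at 24 h, against 12.5 and 14.9 CPM at 4 h (-2.70 ± 0.21, adjusted p = 2.61e-06), and JUN had 178 and 183 CPM at 24 h, against 358 and 338 CPM at 4 h (-0.95 ± 0.08). ARC and IER2 fell by a similar amount, -0.90 ± 0.09 and -0.80 ± 0.08. CYR61, a matricellular protein, and FOSL2 were called higher, at 0.64 ± 0.09 and 0.37 ± 0.07. The list of MAP kinase feedback genes gave 9 falls and 2 rises among 18 genes. The phosphatase DUSP10 had 30.1 and 28.1 CPM at 24 h, against 58.98 and 54.9 CPM at 4 h, and IER3 had 169 and 160.3 CPM at 24 h, against 295 and 354 CPM at 4 h. Sprouty SPRY2 rose, with 189.9 and 183 CPM at 24 h, against 115 and 121 CPM at 4 h (0.66 ± 0.06, adjusted p = 1.35e-05).

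Targets of TGF-beta and BMP signalling had the lowest median of the lists with at least 10 measured genes, -0.59, with 14 of 20 called lower and 3 higher. PMEPA1, an inhibitor of the pathway that is itself induced by it, had 42.2 and 41.4 CPM at 24 h, against 222 and 201 CPM at 4 h (-2.34 ± 0.09, adjusted p = 1.55e-08). The ligand BMP2 had 7.25 and 8.69 CPM at 24 h, against 23.5 and 22.03 CPM at 4 h, and the BMP antagonist GREM1 had 354 and 322 CPM at 24 h, against 596 and 615 CPM at 4 h. BHLHE40, a repressor that also belongs to the clock and hypoxia lists, had 189 and 188 CPM at 24 h, against 424 and 440.4 CPM at 4 h, and stayed above its untreated level of 124 and 130.3 CPM. The corepressor TGIF1 and the ligand TGFB2 were called higher, at 0.57 ± 0.07 and 0.50 ± 0.11, the second not without the second 4 h library (adjusted p = 0.0537). At 4 h, 15 of the 20 had been called higher than in untreated cells (15% of all tested genes were).

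Kruppel-like factors gave 5 rises and 2 falls among 13 genes. KLF9 rose by 0.91 and KLF12 by 0.61 on the log2 scale, and KLF10, a TGF-beta-induced member, had 90.6 and 92.00 CPM at 24 h, against 157 and 154 CPM at 4 h. KLF9 and KLF12 were the 2 members called lower than untreated cells at 4 h, where 5 were called higher. Over all tested genes, these shares were 13.6% and 15%. At 24 h neither KLF9 nor KLF12 was called against control (adjusted p = 0.184 and 0.941). Of 15 YAP targets, 6 were called higher and 3 lower. DLC1 had 173 and 189 CPM at 24 h, against 112 and 102 CPM at 4 h, while F3, the tissue factor gene, had 104 and 90.4 CPM at 24 h, against 272 and 246 CPM at 4 h (-1.42 ± 0.09) and ANKRD1 a change of -1.57 ± 0.29. Notch and HES genes had 5 of 10 called lower and none higher, among them the ligand JAG1 with 18.6 and 20.7 CPM at 24 h, against 38.1 and 32.8 CPM at 4 h.

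**Figure D5:**
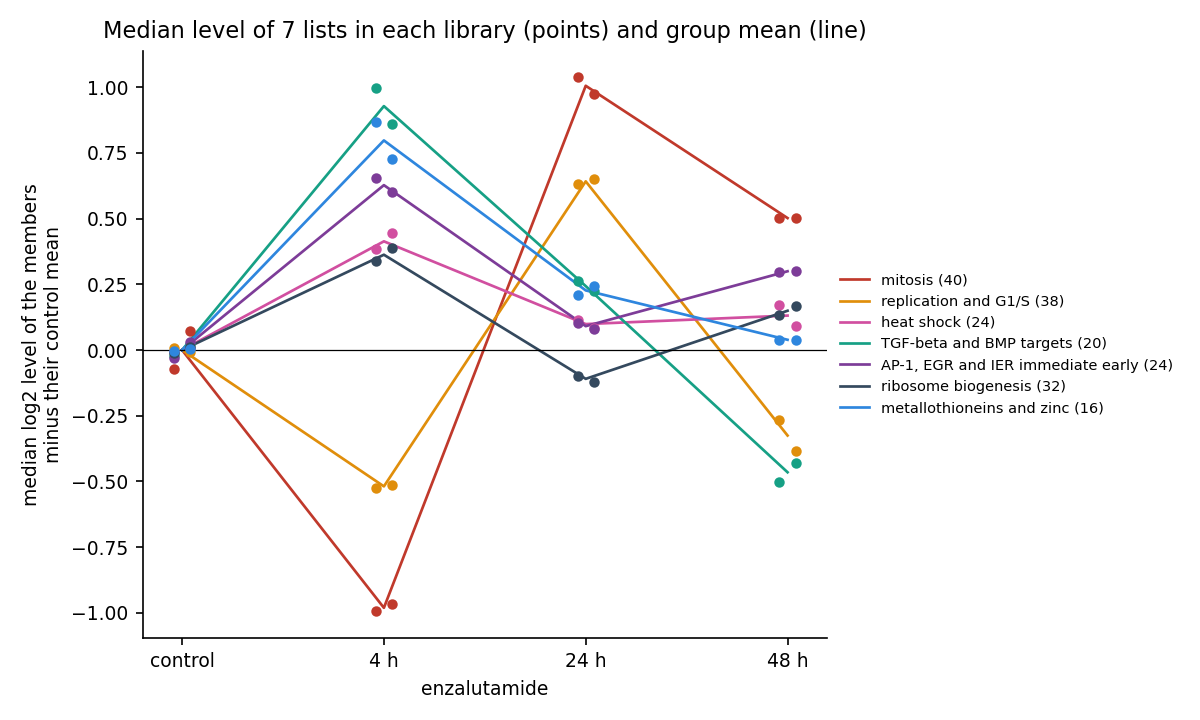
Median over the members of 7 lists of their log2 level minus the mean of the untreated libraries (y axis), in each library (points), with group means joined along the order of times (x axis). Mitosis lies at 1.04 and 0.97 at 24 h and at -0.99 and -0.97 at 4 h, and the 5 stress, signalling and ribosome lists lie above 0 at 4 h and nearer to 0 at 24 h.

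Secreted inflammatory factors changed in both directions, with 8 of 27 NF-kappaB genes called higher and 11 lower. LIF, a cytokine of the IL6 family, had 764 and 699.5 CPM at 24 h, against 1782 and 1774 CPM at 4 h (-1.28 ± 0.08, adjusted p = 3e-07), and IL8 had 1885 and 1807 CPM at 24 h, against 2906 and 2711 CPM at 4 h. BIRC3, an inhibitor of apoptosis, rose, with 54.4 and 63.3 CPM at 24 h, against 21.3 and 21.2 CPM at 4 h (1.47 ± 0.10, adjusted p = 8.09e-07), as did CXCL2, at 0.89 ± 0.08. CXCL2 had 121 and 127 CPM at 24 h, against 68.8 and 65.2 CPM at 4 h. Its untreated libraries had 156 and 135 CPM, and it was still called below untreated cells at 24 h (adjusted p = 0.0434). Interferon-induced genes gave 9 rises and 3 falls among 29, with a median of 0.22. OAS3, a sensor of double-stranded RNA, had 25.9 and 30.5 CPM at 24 h, against 4.88 and 6.62 CPM at 4 h (2.28 ± 0.15), and IFI44 had 34.2 and 31.4 CPM at 24 h, against 12.8 and 13.5 CPM at 4 h. The 24 h libraries of IFI44 overlapped the untreated ones, which had 30.03 and 31.7 CPM. XAF1 fell, with 1.44 and 2.06 CPM at 24 h, against 5.2 and 6.03 CPM at 4 h (-1.69 ± 0.25).

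Among 26 targets of p53, 16 were called higher and 3 lower, with a median of 0.40. BTG2, an antiproliferative gene, had 6.43 and 8.78 CPM at 24 h, against 2.32 and 2.26 CPM at 4 h (1.73 ± 0.20, adjusted p = 5.79e-05), and its untreated libraries had 2.35 and 2.19 CPM. RRM2B, the p53-induced subunit of ribonucleotide reductase, had 145 and 156 CPM at 24 h, against 98.3 and 99.6 CPM at 4 h, and ferredoxin reductase FDXR had 36.1 and 41.1 CPM at 24 h, against 24.4 and 22.9 CPM at 4 h. SERTAD1 went against the list, with 12.6 and 13.8 CPM at 24 h, against 45.6 and 48.6 CPM at 4 h (-1.84 ± 0.10), and so did C12orf5, the TIGAR gene, at -0.38 ± 0.09, which was not called without the second 4 h or the second 24 h library (adjusted p = 0.0714 and 0.0700). CDKN1A of this list is described above.

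Of 23 glycolysis genes, 12 were called higher and 6 lower, with a median of 0.27. Phosphoglycerate kinase PGK1 had 1375 and 1365 CPM at 24 h, against 779.8 and 770.1 CPM at 4 h (0.82 ± 0.06, adjusted p = 1.98e-06), and lactate dehydrogenase LDHA had 1934 and 1887 CPM at 24 h, against 1237 and 1248 CPM at 4 h. PFKFB3, which makes the activator of phosphofructokinase, had 70.9 and 71.97 CPM at 24 h, against 222 and 220.5 CPM at 4 h (-1.63 ± 0.13), and the glucose transporter SLC2A1 had 90.4 and 90.4 CPM at 24 h, against 202 and 211 CPM at 4 h (-1.19 ± 0.10). The TXNIP, arrestin and glucose uptake list had 8 of 11 called lower and none higher. Hypoxia genes split into 11 rises and 13 falls of 24. The growth factor VEGFA had 595 and 561 CPM at 24 h, against 1614 and 1563 CPM at 4 h (-1.46 ± 0.07), while carbonic anhydrase CA9 had 264 and 269.5 CPM at 24 h, against 126 and 120.1 CPM at 4 h (1.12 ± 0.10) and lysyl oxidase LOX rose by 0.88 on the log2 scale.

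Lipid genes did not move together. Of 25 cholesterol genes, 10 were called lower and 5 higher. INSIG1, the sterol-dependent brake on SREBP processing, had 233 and 211 CPM at 24 h, against 733 and 732 CPM at 4 h (-1.72 ± 0.07, adjusted p = 2.15e-08). Fatty acid synthesis gave 4 rises and 2 falls of 12, with SREBF1 at -0.76 ± 0.09 and FADS2 at 0.64 ± 0.16. FADS2 was not called without the second 4 h or the first 24 h library (adjusted p = 0.0746 and 0.0501). In lipid catabolism, 3 of 12 rose and 3 fell, beside 21.2% and 20.3% of all tested genes. PDK4, which blocks pyruvate dehydrogenase, had 6.46 and 5.67 CPM at 24 h, against 1.96 and 1.47 CPM at 4 h (1.84 ± 0.22), opposite to ANGPTL4, although both are known PPAR targets.

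Of 32 genes of ribosome assembly, 27 were called lower and none higher, with a median of -0.50 and none of 2-fold. The snoRNP protein NOP58 had 65.6 and 60.1 CPM at 24 h, against 116 and 119 CPM at 4 h (-0.90 ± 0.07), RRP12 had 57.9 and 57.9 CPM at 24 h, against 111 and 109.9 CPM at 4 h (-0.93 ± 0.07), and the methyltransferase NOP2 had 52.9 and 55.1 CPM at 24 h, against 88.02 and 94.8 CPM at 4 h. At 4 h, 24 of the 32 had been called higher than in untreated cells. Of 40 structural ribosomal proteins, 3 were called lower (RPL4, RPL5 and RPL13), with a median of -0.09. That count was 16 in a fit of the 4 libraries alone and 17 without the 48 h libraries, and RPL4 and RPL13 lost their calls without either control, the first 4 h or either 24 h library (adjusted p = 0.0519 to 0.270), RPL4 also without the second 4 h library (0.128). Subunits of oxidative phosphorylation had 1 of 32 called, NDUFS1 at 0.18 ± 0.06, and a range from -0.15 to 0.18. NDUFS1 was not called with DESeq2 (adjusted p = 0.0945), with length and GC content corrected (0.184) or with each 4 h or 24 h library left out in turn (0.0838 to 0.167). In the fit of all 8 libraries the shares called in these last lists are below the 41.5% called in either direction over all tested genes.

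Matrix genes changed in both directions, with 10 of 29 called higher and 10 lower. Versican (VCAN) had 242 and 261 CPM at 24 h, against 124 and 106 CPM at 4 h (1.13 ± 0.11), and thrombospondin THBS1 had 55.7 and 60.02 CPM at 24 h, against 152 and 142 CPM at 4 h (-1.34 ± 0.08). Proteases and their inhibitors had 7 of 17 called lower and none higher, among them the collagenase MMP1 with 97.6 and 87.3 CPM at 24 h, against 174 and 171 CPM at 4 h. In the hyaluronan list 6 of 10 fell and 2 rose. The synthase HAS1 had 225 and 195 CPM at 24 h, against 734 and 635 CPM at 4 h (-1.71 ± 0.13), and KIAA1199, which takes part in hyaluronan breakdown, had 40.4 and 37.6 CPM at 24 h, against 126 and 108 CPM at 4 h (-1.58 ± 0.08). HMMR, a hyaluronan receptor that also works at the mitotic spindle, rose by 2.16 on the log2 scale.

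Of 22 measured androgen-responsive genes, 6 were called higher and 5 lower, beside 21.2% and 20.3% of all tested genes, with a median of 0.02. KLK3, UGT2B15 and UGT2B17 were at 0 in all libraries. The largest change of the list was a fall, that of PMEPA1 described above (-2.34). Prostatic acid phosphatase ACPP had 19.7 and 19.5 CPM at 24 h, against 5.28 and 5.56 CPM at 4 h (1.85 ± 0.12) and the co-chaperone FKBP5 had 13.5 and 14.7 CPM at 24 h, against 7.64 and 6.21 CPM at 4 h (1.04 ± 0.15). The glucocorticoid receptor NR3C1 had 157 and 166 CPM at 24 h, against 193 and 186 CPM at 4 h, and did not pass the test (-0.23 ± 0.10, adjusted p = 0.0826). It was called lower with DESeq2 (0.0474), with length and GC content corrected (0.0216), in fits of the 4 libraries alone (0.00134) or without the 48 h group (0.000739) and without either 48 h library (0.00194 to 0.00203). Glucocorticoid-responsive genes gave 4 rises and 9 falls of 16.

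Clock genes gave 6 rises and 7 falls of 20: PER3 had 37.6 and 39.5 CPM at 24 h, against 19.4 and 22.1 CPM at 4 h (0.89 ± 0.09) and the nuclear receptor NR1D1 rose by 0.70, while PER2 had 11.6 and 10.5 CPM at 24 h, against 20.8 and 17.2 CPM at 4 h (-0.78 ± 0.12). The labels do not give the time of day at harvest. Of 14 glioma stem cell genes, 3 were called higher and 4 lower, beside 21.2% and 20.3% of all tested genes. ALDH1A3, an aldehyde dehydrogenase of mesenchymal glioma, had 2118 and 1994 CPM at 24 h, against 3969 and 4079.8 CPM at 4 h (-0.97 ± 0.06), and the Polycomb methyltransferase EZH2 had 57.2 and 58.9 CPM at 24 h, against 17.7 and 19.1 CPM at 4 h (1.66 ± 0.09). Of 12 measured astrocytic and mesenchymal glioma markers, 3 were called higher and 4 lower. Their median log2 change was -0.17, in a range from -0.82 to 0.74. Among the rises, vimentin (VIM) had 7983 and 7730.2 CPM at 24 h, against 5748 and 5609 CPM at 4 h (0.47 ± 0.05), and nestin (NES) rose by 0.74 on the log2 scale. Markers of neurons, oligodendrocytes, endothelium and epithelium had few measured members and gave 2 rises and 5 falls, none called in the immune list.

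A few falls rested on the first 4 h library. PDE3A had 165 and 209 CPM at 24 h, against 1537 and 187 CPM at 4 h, and EFCAB11 had 13.7 and 14.9 CPM at 24 h, against 69.98 and 12.3 CPM at 4 h. RMRP and RPPH1 are RNAs of ribonuclease complexes. RMRP had 0.578 and 1.56 CPM at 24 h, against 21.6 and 1.41 CPM at 4 h, and RPPH1 had 0.315 and 0.264 CPM at 24 h, against 4.56 and 0.235 CPM at 4 h. These are the 4 genes called lower whose libraries overlapped. Without that library PDE3A, EFCAB11 and RPPH1 turned to log2 changes of 0.0035, 0.22 and 0.30, and RMRP stood at -0.42, none of them called. No other gene called over all libraries changed sign without it. HFM1, with 1884 and 1983 CPM at 24 h, against 6463 and 2286 CPM at 4 h, and DLG2, UNC45B, SLCO5A1 and INTS4 showed the same excess in that library, and none of these was called without it.

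The comparison was proposed under the name of a switch from an early stress response to cell cycle expression. Comparison and lists were chosen with earlier results of these data known, so the values describe the name and do not test it. Nearly all members of the mitosis, replication and DNA repair lists were higher at 24 h, but most of them were also below untreated cells at 4 h. HMOX1, the inducible HSP70 genes HSPA1A and HSPA1B and most measured genes of the metallothionein and zinc, AP-1 and TGF-beta lists were called lower at 24 h. Of 27 NRF2 targets, 11 were called lower and 15 not called, and of 24 heat shock genes, 12 were called lower and 10 not called. The ATF4 and unfolded protein lists gave changes under 2-fold in all genes but STC2. Of 20 replication histone genes with enough counts, 1 was called higher and 5 lower, and how RNA was selected is not stated.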

How the data were processed

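RNA-seq of 8 U87MG libraries, 2 per group, was used. Per the submitters' processing notes, Bowtie was used and hg19 and GRCh37 are named. Versions, the counting program, the annotation and strand use were not given in the sources used here. Read counts per gene were deposited by the authors as whole numbers, with no normalisation. Of the listed names, 28 had been turned into dates (0.191 to 0.224% of counts); they stayed in the totals and are not reported.

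Counts were analysed with edgeR 4.0.16 in R 4.3.3. Genes were kept with filterByExpr (14448) and scaled by TMM factors of 1.016 to 1.038 in the 4 libraries compared. A quasi-likelihood model with a coefficient for each group was fitted to all 8 libraries (4 residual degrees of freedom, biological coefficient of variation 7.15%), and the contrast was 24 h minus 4 h. Adjusted p-values are Benjamini-Hochberg over all tested genes, with a threshold of 0.05. CPM were computed from the deposited counts with the TMM factors. On counts simulated for this contrast (14308 genes tested), 97% of 2-fold and 80% of 1.5-fold changes were recovered, and 21 unchanged genes were called. The simulation changed only a small set of genes and drew counts with the spread fitted to these libraries. It gave no library an excess of its own, so the 21 set no rate of false calls for the 5997 calls reported here.

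The comparison, the 45 gene lists and the tests were chosen with earlier results of these data known. Some genes that the naming rule selects are not reported here. Lists are described by counts and medians, without a test. The genes named were the 12 largest changes in each direction with a mean of at least 2 log2 CPM and groups that did not overlap, the 4 of smallest p per direction with at least 2-fold change, up to 4 called members per list in its main direction and 2 in the other, and a panel of 11 genes; others named are said to be chosen later or illustrate a range, a promoter or a library. Alternatives were DESeq2 1.42.0, limma-voom (3.58.1), other scalings and filters, a replicate block, fits of 4 or 6 libraries, thinning to 24620833 counts, a length and GC correction, and each library left out. Promoters came from RefSeq (GRCh38.p14), matched by symbol for 77.2% of tested genes; shares are given where at least 80% of a list had one. Thinning ended the calls of 5 named genes.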

Additional observations from a re-analysis of the deposited data

How the results depend on the processing

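Over all the alternatives run, the 4 totals and the counts of called members in the mitosis, replication, metallothionein, heat shock, AP-1, TGF-beta and ribosome assembly lists stayed within 1.5 times the reported count, with these exceptions. With at least 5 CPM required in 2 libraries, which leaves 11076 genes, 250 genes were called lower by at least 2-fold in place of 545. Leaving out 1 library at a time, 2025 to 3730 genes were called higher and 1798 to 3609 lower; the lowest values came without the second 24 h library, and 1879 were called lower without the first. In such fits the lone library is assumed to vary like the other groups. Over the other counts of list members higher or lower, 157 of 1540 moved by more than 1.5 times, 142 of them counts of 5 or fewer genes. Ribosomal protein genes called lower were 16 in the 4 libraries alone and 17 without the 48 h group, in place of 3, and oxidative phosphorylation genes called higher 6 and 3, in place of 1. Extracellular matrix genes, 10 called lower, gave 3 without the second 24 h library. All 40 mitosis genes were called higher under every alternative listed. DESeq2 called 2608 higher and 2749 lower, and the 4 libraries alone 3752 and 3701.

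Deviations from the group means of 24 h and 4 h correlated at -0.0049 between libraries of the same number. The value was 0.0757 for 24 h with 48 h and 0.135 for control with 48 h, the largest among the pairs of groups. These values do not show whether libraries of the same number were handled together. With the replicate block, 3240 genes were called higher and 3130 lower, NR3C1 among them (adjusted p = 0.0432). Of 212 named genes that were called, 173 were called under every alternative that tested them. Of the 39 others, DESeq2 ended 11 calls, the length and GC correction 7 and thinning 5, and leaving out a 4 h or 24 h library 24 to 29. Beside PDE3A, EFCAB11 and RPPH1, whose values are in the report, the sign changed for DDIT3, which is not called: its log2 change was 0.00087 with limma-voom, 0.016 without a filter, 0.0011 with the replicate block, 0.015 with length and GC content corrected, 0.021 with that correction and the block, and from -0.093 to 0.091 over the fits that leave out 1 library. No group of samples was large enough to test for an outlying library.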

Other observations

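Gene families chosen after values had been seen are described here, so their counts carry no test. Of 11 measured SR splicing factors, 6 were called lower and 2 higher at 24 h. SRSF6 had 67.5 and 65.04 CPM at 24 h, against 196 and 185 CPM at 4 h (log2 change -1.52 ± 0.10), and SRSF2 had 86.5 and 86.04 CPM at 24 h, against 197 and 203 CPM at 4 h (-1.21 ± 0.07). SRSF11 went the other way, with 82.6 and 81.5 CPM at 24 h, against 42.3 and 43.5 CPM at 4 h (0.94 ± 0.07). The CLK kinases, which phosphorylate SR proteins, had 3 of 4 called higher, and CLK3 had 52.00 and 49.5 CPM at 24 h, against 18.7 and 20.2 CPM at 4 h (1.38 ± 0.08).

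Families of chromosome and spindle genes were counted in the same way, and some of their members are also in the lists of the report. Of 13 condensin and cohesin subunits, 12 were called higher and none lower. NCAPG of condensin had 88.8 and 90.4 CPM at 24 h, against 15.2 and 16.1 CPM at 4 h (2.52 ± 0.08), while RAD21 of cohesin had 357 and 353 CPM at 24 h, against 167 and 173 CPM at 4 h (1.06 ± 0.06). Of 14 tubulins, 11 were called higher and 1 lower. TUBB had 1473 and 1419 CPM at 24 h, against 547 and 567 CPM at 4 h (1.38 ± 0.07), and its untreated libraries had 1092 and 1077 CPM. Tubulin genes are close copies and may share reads. Of 14 genes of the nuclear lamina and chromatin assembly, 13 were called higher. LMNB1 had 46.8 and 46.3 CPM at 24 h, against 12.5 and 15.4 CPM at 4 h (1.74 ± 0.12), whereas LMNA had 606 and 578 CPM at 24 h, against 596 and 578 CPM at 4 h, and did not pass the test (adjusted p = 0.903). Of 33 measured kinesins, 22 were called higher, 14 of them by at least 2-fold, and 2 lower.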
